A study of Caenorhabditis elegans with 2 samples.

Results

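The regions described here are the 500 X chromosome regions of Caenorhabditis elegans with the highest signal in a chromatin immunoprecipitation of the protein F33H1.4. They were chosen by the authors' signal value alone, from the 6233 X regions of an unthresholded list of 51479 regions made from both replicates. Signals of the 500 ran from 46.7 to 3044 with a median of 55.2, and because they chose the set they are given as a description, with no test. At the lower edge, the last region inside the set, 66 bp upstream of M60.6, had a signal of 46.68. The 2 ranked before it, near Y108F1.5 and nhr-28, had 46.69 and 46.72. The first 3 outside, near attf-5, T14B1.1 and npr-40, had 46.68, 46.67 and 46.65.

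The study holds 1 group of 2 biological replicates of strain RW12303, which carries st12303, a CRISPR insertion on chromosome II that fuses F33H1.4 to TY1, EGFP and 3xFLAG. Per the labels, whole young adults were taken at 62.5 hours, after synchronisation by starving bleached larvae at the L1 stage, and chromatin was sonicated to 200 to 800 bp and precipitated with an antibody against GFP. No other genotype, treatment or control library was analysed here, read depth is unknown, and the 2 replicates allow no test over samples. Because whole animals were used, strong binding in few cells and weak binding in many cannot be told apart.

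Chromatin immunoprecipitation recovers DNA that a tagged protein touches directly or through other proteins, so a strong region may lie at a promoter, at a distal element or at a repeated sequence. The C. elegans X is known for carrying few genes of the germ line and for being bound in hermaphrodites by the dosage compensation complex, which is recruited through sites that hold copies of a short X-enriched motif. Transfer RNA genes, many of which lie on the X, are transcribed by RNA polymerase III from promoter boxes inside the gene.

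Some of the strong regions fall into groups by sequence, which can overlap. Most regions of the set, those of ranks 2, 3 and 4 by signal among them, belong to none of the groups shown next. A few windows reaching 50 bp to each side of the summit (the position of highest signal) show the groups. Sequence is from the RefSeq genome WBcel235, the same build as ce11. The first 3 windows are from promoter regions of ranks 5, 6 and 13 by signal, with the word GGTCTCG in capitals. They lie upstream of asb-2 (chrX:4469449-4469549, plus strand), vha-12 (chrX:4190746-4190846, plus strand) and eef-1A.2 (chrX:7823281-7823381, plus strand).
asb-2: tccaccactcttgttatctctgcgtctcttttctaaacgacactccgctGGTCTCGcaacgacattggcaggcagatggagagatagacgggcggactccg
vha-12: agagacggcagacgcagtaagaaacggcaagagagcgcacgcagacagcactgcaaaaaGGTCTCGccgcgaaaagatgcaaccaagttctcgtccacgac
eef-1A.2: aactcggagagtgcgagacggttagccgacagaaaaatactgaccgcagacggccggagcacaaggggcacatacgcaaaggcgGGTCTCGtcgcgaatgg

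The next 3 windows are from regions inside tandem arrays, where a short unit is repeated head to tail, and 1 period is in capitals. They are the strongest region of all (chrX:15811059-15811159, plus strand) and the regions of ranks 18 and 21 (chrX:5056880-5056980 and chrX:110448-110548, plus strand), which share a unit read on opposite strands. At rank 1 the period of best match, 52 bp, spans near-identical copies of a 26 bp unit.
rank 1: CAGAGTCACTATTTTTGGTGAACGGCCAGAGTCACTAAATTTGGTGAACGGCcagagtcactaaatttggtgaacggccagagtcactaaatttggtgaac
rank 18: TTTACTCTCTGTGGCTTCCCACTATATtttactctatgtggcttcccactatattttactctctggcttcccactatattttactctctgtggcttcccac
rank 21: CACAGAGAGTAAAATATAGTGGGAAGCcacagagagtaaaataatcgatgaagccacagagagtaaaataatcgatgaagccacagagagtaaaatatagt

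A further pair is from transfer RNA genes, on the gene's strand and with bases of the gene in capitals. They are the alanine tRNA gene F15G9.t1 (chrX:9743595-9743695, plus strand) and the asparagine tRNA gene F41D9.t3 (chrX:8404459-8404559, plus strand).
F15G9.t1: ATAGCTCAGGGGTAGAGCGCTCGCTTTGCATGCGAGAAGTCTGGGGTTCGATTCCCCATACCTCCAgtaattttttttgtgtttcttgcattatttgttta
F41D9.t3: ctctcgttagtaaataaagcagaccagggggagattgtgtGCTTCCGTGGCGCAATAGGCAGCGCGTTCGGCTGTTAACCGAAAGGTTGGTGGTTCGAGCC

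The last 5 windows hold GCGCAGGG, the core of the X motif of dosage compensation, in capitals. They are the regions of ranks 29 (chrX:11094173-11094273, minus strand), 46 (chrX:4209238-4209338, minus strand), 51 (chrX:14525837-14525937, minus strand), 58 (chrX:6296528-6296628, plus strand) and 92 (chrX:806643-806743, plus strand).
rank 29: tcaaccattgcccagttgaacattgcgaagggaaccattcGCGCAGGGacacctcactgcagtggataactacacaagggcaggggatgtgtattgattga
rank 46: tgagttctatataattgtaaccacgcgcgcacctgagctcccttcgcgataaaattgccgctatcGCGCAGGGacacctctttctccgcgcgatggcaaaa
rank 51: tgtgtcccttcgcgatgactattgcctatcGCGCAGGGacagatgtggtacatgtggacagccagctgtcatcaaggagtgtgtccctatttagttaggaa
rank 58: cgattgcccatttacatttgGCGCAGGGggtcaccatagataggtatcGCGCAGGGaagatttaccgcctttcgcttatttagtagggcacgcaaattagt
rank 92: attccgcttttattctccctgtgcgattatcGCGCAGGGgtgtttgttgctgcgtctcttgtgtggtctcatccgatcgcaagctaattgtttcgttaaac

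Of the 500 regions, 86 were also in the authors' thresholded list of the series, called listed below, against 6.31% of all regions of the unthresholded list and 1.49% of all its X regions. This share of 17.2% describes the rule and is not a result about the regions, since list and rule both follow the strength of a region. Among the 25 strongest regions 19 were listed, among the next 25 there were 22, among the next 50 there were 30, among the next 100 there were 13, and among the last 300 there were 2. Only 93 X regions were listed in all, and the 7 outside the set had signals of 2.18 to 24.1. Of those 7, 5 overlapped a stronger region of the set, among them the ones upstream of spat-3 and near F15G9.5. On the autosomes, the same rule gave 500 regions per chromosome of which 84.6% (chromosome V) to 98.6% (chromosomes I and III) were listed. The 500th region had a signal of 69.7 to 120.03 there, so the X set reaches further down in signal than any autosomal set of the same size.

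**Figure D1:**
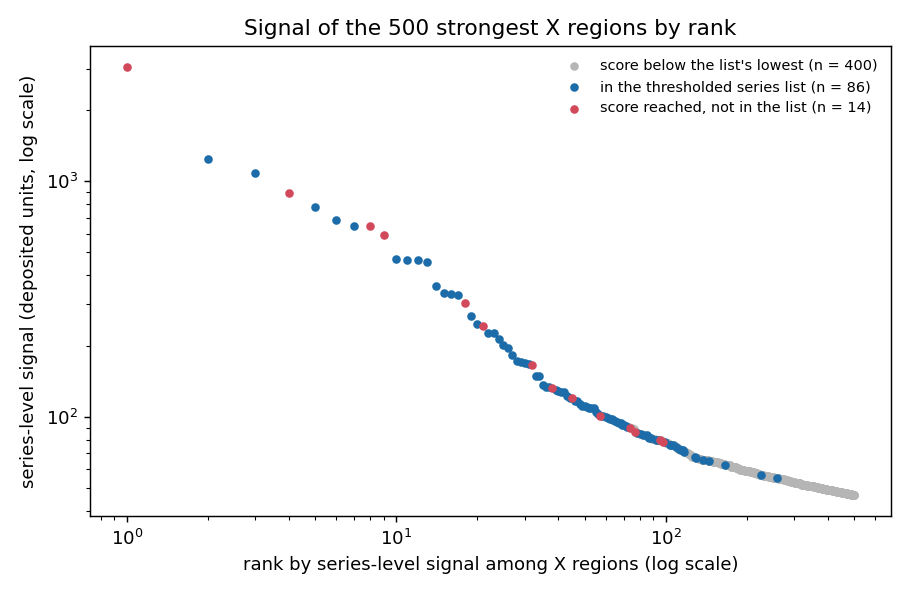
Series-level signal (vertical axis, deposited units, log scale) against rank (horizontal axis, log scale) for the 500 strongest X regions, 1 point a region, coloured by whether the region was in the thresholded list. The listed regions (86) crowd the first ranks, and 14 regions that reached the list's scores but were not in it, among them the strongest, are interleaved with them.

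Of the 25 strongest regions, 19 were overlapped by thresholded peaks of both replicates and 6, rank 1 among them, by none. Among the last 300 regions, 1 was overlapped by peaks of both and 298 by none. Over the whole set, a thresholded peak of replicate 1 overlapped 45 regions, one of replicate 2 overlapped 60, peaks of both overlapped 40 against 3.93% of all regions of the list, and 435 regions had neither. In the unthresholded lists a region of replicate 1 overlapped 455, one of replicate 2 overlapped 422, and both overlapped 384, against 34.6% of all regions. Only 7 regions, near ldb-1, col-180, acl-4, ptp-4A2, bus-5, aman-1 and T08D2.8, overlapped no region of either replicate, and their signals ran from 47.7 to 56.6. The series list was made from the same libraries, so these overlaps describe support and test nothing. The 3 strongest regions without a region of 1 replicate all lacked replicate 1. They lay 224 bp upstream of T14F9.2 (signal 134), at the tRNA gene F41D9.t3 inside sulp-3 (signal 114) and at the tRNA gene F32A6.t1 inside sto-2 (signal 99.3), and their signals in replicate 2 were 93.1, 73.2 and 41.7. All 3 were listed.

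The strongest listed regions lay at promoters, here the 1000 bp before and the 200 bp after the 5′ end of any protein-coding transcript. The region of rank 2 (chrX:182208-182708) had a summit 210 bp upstream of chkr-1, with a signal of 409.7 in replicate 1, 830.2 in replicate 2 and 1242 in the series list. Next came rpl-11.2, which encodes a protein of the large ribosomal subunit, with 396 and 697 in the replicates, 377 bp upstream of its 5′ end. The region upstream of asb-2, a subunit of the mitochondrial ATP synthase, had 304 and 478. These 3 regions were among the 5 strongest on the X and were higher in replicate 2 than in replicate 1.

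The other listed promoters of the 25 strongest regions followed at lower signal. The region 298 bp upstream of vha-12, a subunit of the proton-pumping vacuolar ATPase, had 239 and 449 in replicates 1 and 2. The one at Y73B3A.20 (chrX:47455-47925), 7 bp downstream of its 5′ end, had 269 and 381 and lay within 200 bp of the snoRNA gene Y73B3A.30. The region upstream of glit-1, which encodes a relative of the cell adhesion protein gliotactin, had 205 and 259. A second ATP synthase subunit gene, asg-2, had a region 196 bp upstream with 167 and 297, and eef-1A.2, which encodes the translation elongation factor that delivers aminoacyl-tRNA to the ribosome, had one 323 bp upstream with 166 and 290.3. Lower still were T14G11.1 with 146 and 218, R07E4.3 with 127 and 209.9, and tag-123 with 119 and 207. The last of these promoters were those of sec-16A.2, a scaffold of vesicle export from the endoplasmic reticulum, with 87.2 and 178, vha-15, another vacuolar ATPase subunit, with 61.6 and 161, and erd-2.1, a receptor that returns proteins to the endoplasmic reticulum, with 75.4 and 125. All 14 promoter regions among the 25 strongest had the higher signal in replicate 2. The summits named for chkr-1, Y73B3A.20, glit-1, asg-2 and R07E4.3 also lay in the promoters of T08D2.6, Y73B3A.1, dnj-14, glr-6 and R07E4.5, in that order.

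The 141 regions with a promoter summit were 28.2% of the set (exact binomial 95% interval 24.3 to 32.4), against 21.7% of the other X regions of the list, called weaker below, a difference of 6.50 percentage points (2.58 to 10.7). Of the 141, 115 lay upstream of the nearest 5′ end, at a median of 410 bp, and 26 lay downstream. Of the 37 listed ones, 35 lay upstream, at a median of 298 bp, and 2 downstream. Promoters of 2 or more genes held 14 of the 141 and 6 of the 37. Listed regions had a promoter summit in 43.0% of cases and the unlisted ones in 25.1%, a difference of 17.9 points (7.03 to 29.2). The unlisted ones did not differ detectably from the weaker X regions, at 3.42 points (-0.661 to 7.94). All intervals of a difference are Newcombe intervals at 95%, which treat regions as independent and cover counting error only.

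Promoters took a smaller part of the X set than of the same selection on any autosome. Between 58.4% (chromosome V) and 72.6% (chromosome III) of the 500 strongest autosomal regions had a promoter summit, and the smallest difference, from chromosome V, was -30.2 points (-35.9 to -24.2). Among listed regions alone, 43.0% of the 86 on the X and 63.1% of the 3157 autosomal ones lay at promoters, a difference of -20.1 points (-30.2 to -9.40).

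**Figure D2:**
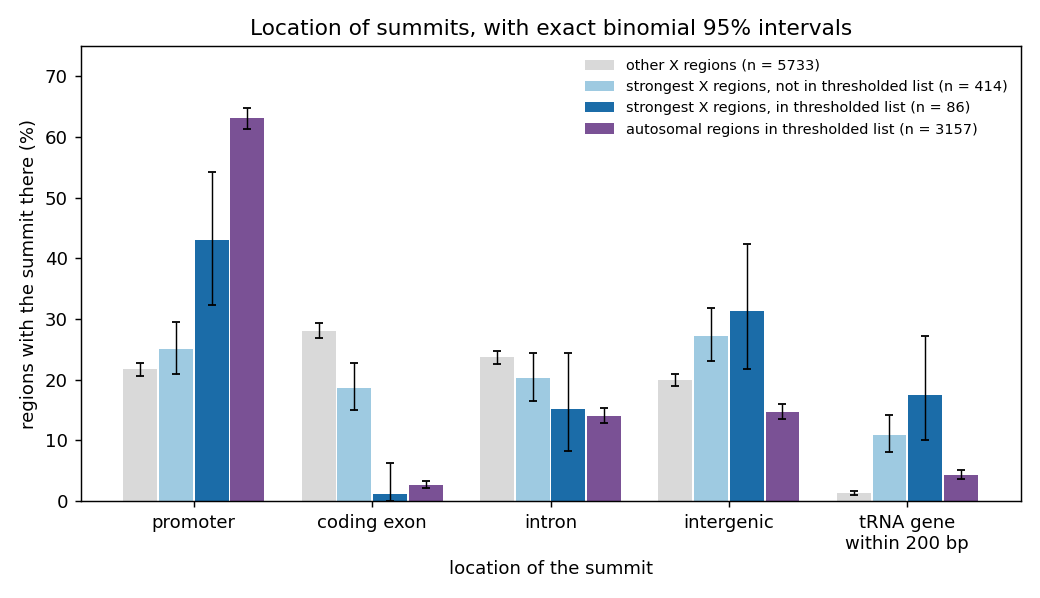
Percentage of regions (vertical axis) whose summit lay in a promoter, coding exon, intron or intergenic stretch, or within 200 bp of a tRNA gene (horizontal axis), with exact binomial 95% intervals, for 4 sets of regions. Listed X regions sit at 43.0% promoters against 63.1% for listed autosomal regions, and at 17.4% near tRNA genes against 4.31%.

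Outside promoters, 140 summits were intergenic (28.0%), 97 intronic (19.4%), 78 in coding exons (15.6%), 37 in non-coding genes or pseudogenes (7.4%) and 7 in untranslated regions (1.4%). Coding exons held 28.1% of the weaker X regions, and 1 of the 86 listed ones. That listed region lay in C53C11.4, 217 bp downstream of its 5′ end, with 71.5 and 56.6 in replicates 1 and 2. The next coding-exon regions were in H03A11.2, with 61.3 and 31.7, and in let-2, a chain of type IV basement membrane collagen, with 25.6 and 49.2, and neither was listed. The strongest intronic regions were in elk-2, with 121 and 144, in scd-1, with 66.3 and 96.1, and at the tRNA gene F15G9.t1 within him-4, which encodes the extracellular matrix protein hemicentin, with 48.8 and 73.6. All 3 were listed and were higher in replicate 2. In non-coding genes or pseudogenes, the region of rank 12 (chrX:166219-166482) lay in WBGene00011607, 3213 bp upstream of tmed-12, with 148 and 315, and was listed too. Of the other listed regions among the 25 strongest, rank 22 lay 11511 bp downstream of the 5′ end of Y73B3A.20, with 73.7 and 162, and rank 24 near Y102A11A.1, with 144 and 62.5. The next regions in non-coding genes were at the tRNA gene C04A11.t1, with 59.98 and 43.7, and in R03E9.10 near mdl-1, a bHLH factor of the Mad family, with 33.9 and 56.1. In untranslated regions the strongest were in fkh-9, a forkhead factor gene, with 13.3 and 41.2, in F02C12.3, with 31.003 in replicate 1 and no region in replicate 2, and in F49E2.5, with 35.5 and 25.1. None of the 7 was listed.

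Genes of the general annotation class ncRNA were the non-coding class most often near a summit. They lay within 200 bp in 88 of the 500 regions (17.6%) and in 9.31% of the weaker X regions. Among the 500 strongest regions of each autosome the share was 7.8% to 11.4%. Each class was counted by itself, so 1 region can count for ncRNA and for another class. The summit lay within 200 bp of a tRNA gene in 60 of the 500 regions (12%, 9.28 to 15.2) and in 1.33% of the weaker X regions, a difference of 10.7 points (8.09 to 13.8). In 36 of the 60 the summit was inside the gene. Of the 60, 15 also counted as promoter regions, 4 of them listed. The tRNA share was also above that of the 500 strongest regions of each autosome, 2.6% to 5.6%. The smallest of these differences was 6.4 points (2.91 to 9.97). With snRNA and snoRNA genes counted too, the X share was 12.6%. Differences from chromosomes I and III were then 5.8 points (2.14 to 9.52) and 6.4 points (2.80 to 10.1). Those from II, IV and V, at 2.6, 3.6 and 1.2 points, had intervals that included 0. Among listed regions, 15 of 86 on the X (17.4%) were near a tRNA gene against 4.31% of the autosomal ones, a difference of 13.1 points (6.51 to 22.5). The X carries 276 annotated tRNA genes, which was not adjusted for in these shares. Read from the genes' side, 69 of the 276 (25%) had a region of the set within 200 bp, and 19 had a listed one. Many tRNA genes have near-identical copies, and how reads were shared among them was not tested.

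Signals at tRNA genes were moderate, from 46.7 to 129 with a median of 59.96 over the 60 regions, and none was among the 25 strongest on the X. The strongest was at the leucine tRNA gene C04E7.t1 (chrX:353305-353391), with 57.6 in replicate 1 and 69.9 in replicate 2. At F15G9.t1 the values were 48.8 and 73.6, and near the glycine tRNA gene M02F4.t1 they were 48.03 and 63.1. Of the X genes with a RefSeq product, 8 of 17 for leucine, 8 of 23 for glutamic acid, 6 of 20 for proline and 6 of 20 for glycine had a region near, as did 4 of 6 for asparagine. At the low end were 1 of 15 for glutamine, 2 of 18 for lysine and none of 5 for tryptophan. In all, 20 amino acid classes were annotated on the X, with 273 of the 276 genes matched. Other small RNA classes were rarely met. A region lay near 3 of 33 snoRNA genes, none of 3 snRNA genes, 2 of 74 miRNA genes and 1 of 162 piRNA genes.

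Tandem arrays held several of the strongest regions of the X, including the first. A region was called an array when at least 70% of its bases matched the base 1 period away, for a period of 10 to 119 bp. This measure was chosen after the sequences had been seen, so its shares are a description only. By it 33 of the 500 regions (6.6%) were arrays, against 0.802% of the weaker X regions and 6 of 886 windows of the X taken at regular distances. Of the 33, 12 were listed. Signals of the 33 ran from 48.97 to 3044 with a median of 92.7, so arrays were found from the first rank down to rank 405.

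The strongest X region (chrX:15810932-15811190) was such an array. It lay 6937 bp upstream of Y7A5A.7, the nearest protein-coding gene, with a signal of 1896 in replicate 1, 1356 in replicate 2 and 3044 in the series list, and it had the highest score the lists give, 1000. It was not in the thresholded list, and no thresholded peak of either replicate overlapped it. The region of rank 8, 4018 bp upstream of the same gene, had 413 and 253 and was not listed either. Both shared a word of 20 bases with the region of rank 98 near ZK380.2, at 37.6 and 40.7.

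In all 14 of the 500 regions had a score at or above 830, the lowest in the thresholded lists, and yet were not listed. Of the 500, 100 had such a score, so 14 of 100 were not listed, against 82 of 3332 over the whole unthresholded list. The grouping was made after seeing the data. The 5 strongest unlisted regions belong to it: rank 1, rank 8, rank 18, rank 9 near Y102F5A.1 with 389 and 215 in replicates 1 and 2, and rank 4 near R57.2 with 504 and 401. Rank 18 lay near C24H10.4, with 209 and 73.7. Of the 14, 13 were tandem arrays, and the exception was rank 4. Notes deposited with the lists name 1 more input for a thresholded list than for an unthresholded one and do not state what it holds, so the part of that step in the absence of these regions was not tested.

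These 14 regions also differed from the listed ones in how the replicates compared. Their ratio of replicate 2 to replicate 1 signal ran from 0.145 to 1.08 with a median of 0.535, and 13 of 14 were below 1. Several of the 14 share an array sequence, and ranks 45 and 77 show the same replicate values. These are therefore not 14 separate observations. The listed regions had a median ratio of 1.30 (83 with both values), listed promoters one of 1.51 (36) and listed arrays one of 0.959 (12). All 500 X regions together had a median of 1.05 (384 with both values). The 500 strongest regions of each autosome had medians of 1.34 to 1.48. The scale between the replicates' lists is not stated, so a ratio is read only against other regions, and the same libraries stand behind all of them. The widest gap was at rank 21, an array near elk-2, with 217 in replicate 1 and 31.3 in replicate 2. Copy number of the arrays and the placing of reads that match several copies were not tested.

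**Figure D3:**
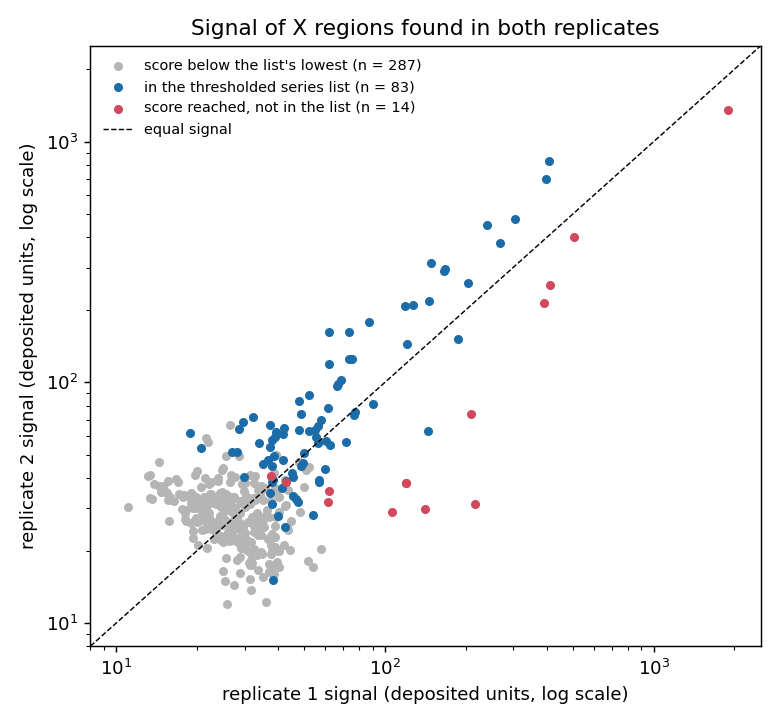
Signal in replicate 2 (vertical axis) against replicate 1 (horizontal axis), both in deposited units on log scales, for the 384 X regions that overlapped a region of both replicates, 1 point a region. Most strong listed regions lie above the line of equal signal, and 13 of the 14 that reached the score but were not listed lie below it.

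**Figure D4:**
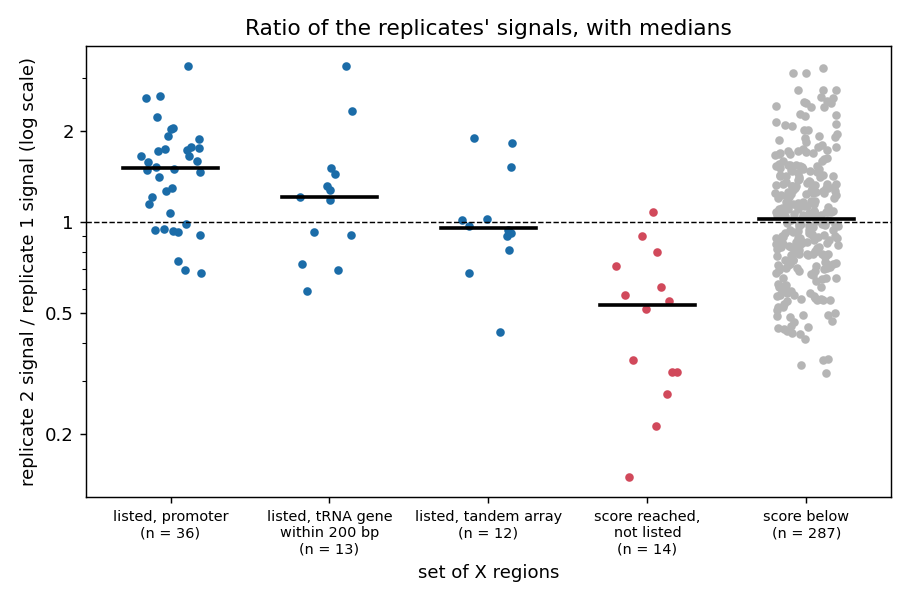
Ratio of replicate 2 to replicate 1 signal (vertical axis, log scale) for 5 sets of the X regions (horizontal axis), with 1 point a region and the median as a bar; sets of listed regions can share regions. The median is 1.51 for listed promoters, 0.959 for listed arrays and 0.535 for regions that reached the score but were not listed.

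Several arrays shared sequence with others far away on the X. Under a shared word of 20 bases, read on either strand, 28 of the 33 fell into 6 families. The largest held 12 regions, with its strongest member near fbxa-190 at 187 in replicate 1 and 151 in replicate 2, and 9 of the 12 were listed. The family of ranks 18 and 21 held 7 regions, including rank 32 near fbxa-221 with 140 and 29.8 and rank 38 near hex-5 with 106 and 28.8, and none of them was listed. Overlapping regions can share a replicate's region: ranks 45 and 77, both in an array near B0403.6, show the same 119 and 38.2.

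The X motif core GCGCAGGG, searched on both strands of the summit windows, was found in 10 of the 500 regions (2.0%) and in 0.105% of the weaker X regions, a difference of 1.90 points (0.977 to 3.54). In consecutive windows of the same length over the whole X its share was 0.0388%. Of the 10, 5 were listed, which is 5.81% of the listed X regions, and 1 of 3157 listed autosomal regions held it (0.0317%). The difference between the listed sets was 5.78 points (2.47 to 12.9). This word was chosen with earlier results of these data known, so its intervals are a description only. Signals of the 10 ran from 54.3 to 170 with a median of 73.1.

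None of the GCGCAGGG regions was a tandem array, and 2 of 10 lay at promoters. The strongest (rank 29) lay between genes, 3963 bp from W02H3.3, with 67.04 in replicate 1 and 98.1 in replicate 2. Rank 46, 1803 bp upstream of F20B6.9, had 62.7 and 54.7, and rank 51, 706 bp upstream of nspc-17, had 56.5 and 55.8. Rank 58 lay in an intron of mom-1, a gene needed for Wnt secretion, with 42.2 and 64.6 and a pair of copies of the core, and rank 92, near gtr-1, had 53.7 and 28.1. Those 5 were listed. Among the unlisted ones was the region 4849 bp upstream of xol-1, the switch gene of sex determination, with 47.9 and 46.5. Those replicate values belong to a region of each replicate that a weaker region of the set, at the arginine tRNA gene C18A11.t2, also overlaps, so they cannot be credited to either alone. The others lay near Y41G9A.17, T24D8.6, WBGene00020828 and R09A8.2, with signals of 54.3 to 65.3.

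A second word, GGTCTCG, was noticed in the strongest windows, so it too is only described, without intervals. It was in 36 of the 500 windows (7.2%), in 29.1% of the listed ones and in 11 of the 25 strongest, against 0.75% of the weaker X regions and 0.438% of consecutive X windows. Of the listed autosomal windows 20.3% held it, so the word was not confined to the X. On the X it stood at the promoters of asb-2, vha-12, eef-1A.2, T14G11.1, R07E4.3, tag-123, sec-16A.2, vha-15 and erd-2.1, whose values are given above. In all 17 of the 36 were promoter regions and 7 were tandem arrays, each of the 7 in the array family of 12 regions. In the others the match 1 period away fell below the cut of 70%, at values such as 69.7% at rank 37, 61.0% at rank 35 and 40.2% at rank 12. No window held both GGTCTCG and GCGCAGGG.

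The first bases of box B of tRNA genes, GGTTCGAN, were in 6.8% of windows against 1.05% of the weaker X regions, a difference of 5.75 points (3.84 to 8.32). GAGAGA was in 10% against 6.33%, a difference of 3.67 points (1.24 to 6.67). TGATAA, the site of GATA factors, was in 5.4% and 7.24%, TTCGCGC, a site of E2F factors, in 0.8% and 0.855%, GGGCGG in 3.8% and 2.58% and the E box CANNTG in 36.4% and 37.96%, and each of these 4 differences had an interval that included 0. Summit windows of the set had a mean of 48.3% G and C, the listed ones 50.9%, the weaker X regions 41.3% and the whole X 35.2%. A match is a run of letters and not a binding site, and the part of base composition in these shares was not tested.

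X-linked genes in 14 lists of gene families and pathways were checked for a region of the set in the promoter. In lists with at least 1 such gene, from 7.41% (collagens) to 100% (ribosomal proteins, translation factors) of the genes had one. In the other lists none did. Over all 2731 protein-coding genes of the X, 153 had one, which is 5.6%, and 43 had a listed one. Both X-linked ribosomal protein genes did, rpl-11.2 as above and rpl-25.1 with 25.2 in replicate 1 and 29.3 in replicate 2, as did the only X-linked translation factor gene in its list, eef-1A.2. Family lists were made by name prefix, such as nhr-, ceh- and col-, so family members named otherwise are not counted in them. Of 23 nuclear hormone receptor genes 4 had a region. That of nhr-255, at 56.8 and 39.3, was listed and lay at the tRNA gene ZK678.t1. The others were nhr-48 at 39.1 and 36.5, nhr-25 at 35.05 and 15.5 and nhr-32 at 40.3 and 19.8. Of 24 ligand-gated channel genes 4 had one, acr-9, acr-12, lgc-47 and lgc-25, none of them listed.

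In each of the remaining lists at most 2 genes had a region. Of 18 homeobox genes ceh-39 and ceh-18 had a region, and ceh-39, which acts as an X signal element in sex determination, was also the only one of the 6 X-linked genes of the sex determination and dosage compensation list. Its region lay 197 bp upstream, with 25.99 in replicate 1 and no region in replicate 2. Of 5 vitellogenin genes, which encode yolk proteins, vit-2 had a region, with 32.5 and 33.1. Of 27 collagen genes col-44 and col-185 had one, and the summit for col-185 lay inside the proline tRNA gene H06A10.t1. None of 34 neuropeptide genes, 11 neuronal genes, 10 potassium channel genes, 9 muscle genes, 8 genes of developmental timing and the vulva and 3 C-type lectin genes had one. One gene of the timing list, lin-14, which sets larval stage identity, held a listed region in an intron instead, with 41.2 and 36.4.

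Along the chromosome the regions were thinner in the middle. The X was divided into 3 sections of 5.91 Mb each. The central section held 24.4% of the 500 (20.7 to 28.4), the left one 41.2% and the right one 34.4%. Of the 5′ ends of coding transcripts 36.5% lay in the central section, which leaves a difference of -12.1 points (-15.9 to -7.84). The weaker X regions had 27.04% of their summits there, and the difference of -2.64 points had an interval that included 0 (-6.38 to 1.47). Listed regions were 50% in the left section, 26.7% in the central and 23.3% in the right. The first 500 kb from the left end held 35 regions, 12 of them listed, and the last 500 kb held 11, with 3 listed.

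**Figure D5:**
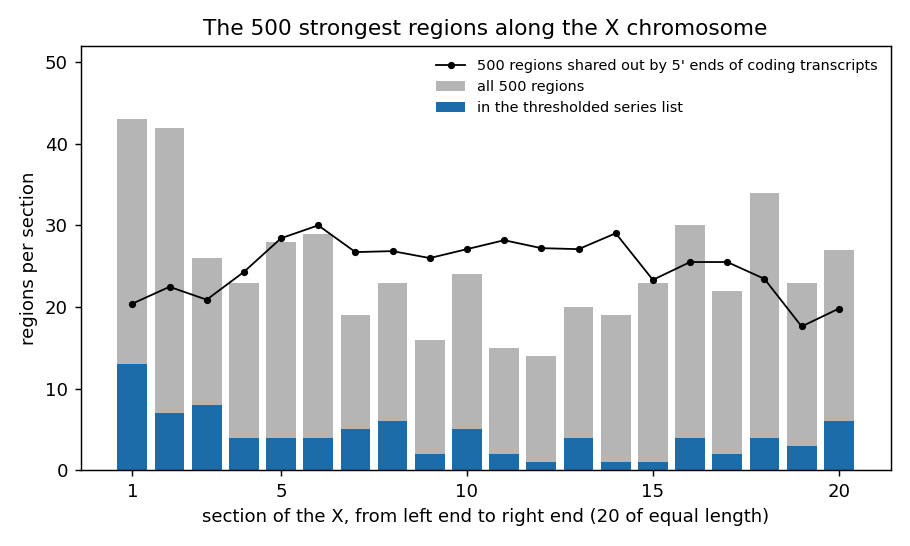
Number of the 500 regions (vertical axis) in 20 sections of equal length from the left to the right end of the X (horizontal axis), with the listed ones in blue and the number that the share of coding 5′ ends would give as a line. The first section holds 43 regions and 13 listed ones, and section 12 holds 14 and 1.

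In length the regions were nearly uniform. Of the 500, 466 were exactly 340 bp long, and the others ran from 86 to 501 bp. Only 4 overlapped another region of the set, so 498 separate places were covered.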

How the data were processed

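The deposited notes trace each replicate's lists to that replicate's reads and the lists of the series to both replicates, on build ce11. Which aligner and caller were used is not given in the sources used here. For each region the authors deposited a score, a signal and the −log10 of a q-value. How the deposited signal scales between lists is not stated. The unthresholded series list used is the one that holds every region of the thresholded list. A region counted as supported when a replicate's region overlapped it by at least 1 base, and the strongest such region gave the replicate's signal. Location classes were ranked, with promoters before coding exons, untranslated regions, introns and non-coding genes or pseudogenes, and a summit took the highest. Genes came from Ensembl, tRNA products and sequence from RefSeq, all on WBcel235, and no region ran past a chromosome's end. Coordinates are 1-based.

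No p-value was computed, since there is 1 group of 2 replicates. Shares have exact binomial 95% intervals and differences Newcombe intervals, whose coverage was checked on simulated data. The regions, the gene lists and the words were chosen with earlier results of these data known. The arrays, GGTCTCG and the GCGCAGGG windows were added after the sequences were seen. Genes were named as the nearest to the 25 strongest regions, to the 5 strongest unlisted, to the 3 strongest of each location class or without 1 replicate, to the 3 on each side of the edge, and as list genes with a promoter region, up to 4 a list. Regions named for a motif, an array or a shared replicate region, and lin-14, were added after their values were seen. Alternatives were other overlap rules, windows, list sizes and lists, and single replicates. Tools were scipy 1.17.1, pandas 2.3.3 and numpy 2.4.6 under Python 3.11.15, with figures by matplotlib 3.10.9.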

Additional observations from a re-analysis of the deposited data

How the results depend on the processing

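No paired analysis was possible because there is 1 group and no comparison between groups. Of 43 alternatives, 29 stayed within 1.5 times a count or within the interval of a share, and 14 moved further. Each was a count or a share with no direction, so none could reverse. Differences between sets were not recomputed under them. Against the stronger 50% of the thresholded lists, 25 regions instead of 86 were listed and 14 instead of 40 had thresholded peaks of both replicates. Promoter windows of 500 bp upstream to 100 bp downstream and of 2000 bp to 500 bp moved the promoter share from 28.2% to 16.2% and 43.0%. The share near small RNA genes (tRNA, snRNA, snoRNA) was 12.6%. It was 7.4% with the summit inside the gene, 17.2% over the 250 strongest X regions and 8.4% over 1000. With the rule applied to 1 replicate's own list, 46 to 63 of its 500 regions were thresholded, 24.2% to 31.0% lay at promoters, 10% to 10.8% near small RNA genes and 27.4% to 27.6% in the central section. Counting 1 replicate alone, 45 to 60 of the regions had a thresholded peak and 422 to 455 an unthresholded one. The conservative thresholded list gave 80 listed regions, and promoters were 29.8% without tandem arrays. Reaching 100 bp instead of 50 bp to each side of the summit left GCGCAGGG at 2.0%, while it rose from 6 to 11 of the weaker X regions and from 1 to 6 of the listed autosomal ones. That window moved TGATAA to 11%, GAGAGA to 19.6%, GGTTCGAN to 9.4%, GGGCGG to 7.6% and CANNTG to 56.4%. Read depth is unknown, so how far it limits the weaker regions cannot be said.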
